A study of Mus musculus with 8 samples.

Results

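The miR-340 sequences of MIN6B1 cells are described here: every distinct listed small RNA sequence that the deposited annotation assigns to a mature arm of mouse miR-340 (mmu-miR-340-5p or mmu-miR-340-3p). There were 4 such sequences among 11568 distinct sequences, and among 652 assigned to any mature miRNA. All 4 were assigned to mmu-miR-340-5p, and 0 to the 3p arm. miR-340 was chosen by its measured counts in 1 contrast, non-oxidized against oxidized RNA with the control plasmid, where the counts went to 0. That contrast is therefore given as a description, with no test.

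MIN6B1 is a line of mouse insulinoma, a tumour of insulin-secreting beta cells. The cells received, by lipid transfection, either a plasmid expressing the HENMT1ΔC-T6B methyltransferase or a control plasmid, and were cultured for 24 to 72 h afterwards. RNA from cells with either plasmid was sequenced without or with an oxidation step with sodium periodate (NaIO4), and whether oxidized and non-oxidized libraries share an RNA is not given in the labels. This gave 4 groups of 2 libraries, made from 5 ng of RNA with the QIAseq miRNA kit: control non-oxidized, control oxidized, methyltransferase non-oxidized and methyltransferase oxidized. All groups share the line, the transfection and the kit, and whether the 2 libraries of a group came from separate cultures is not given in the labels, so p-values measure only the spread between these libraries.

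MicroRNAs are short RNAs cut from hairpin precursors and loaded into Argonaute proteins, where bases 2 to 8, the seed, pair with target messenger RNAs. HENMT1 is an enzyme that adds a methyl group to the 3′-terminal ribose of small RNAs, and T6B is a peptide that binds Argonaute. Periodate oxidizes a free 3′-terminal ribose and so blocks adapter ligation, while a methylated end resists it. miR-340 is an intronic miRNA, so its hairpin is transcribed with its host gene. In several tumour types its 5p arm has been studied as a miRNA that restrains proliferation and migration.

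The miR-340 hairpin lies on chr11:50069702-50069799 of GRCm38, plus strand, in the intron between exons 2 and 3 of Rnf130, a gene for a RING finger protein that is transcribed on the same strand. Both annotated transcripts that span it (GENCODE M21) place it in that intron. The hairpin of 98 bases is shown to locate the sequences counted, with both mature arms in capitals (RefSeq, GRCm38.p6).
miR-340 hairpin: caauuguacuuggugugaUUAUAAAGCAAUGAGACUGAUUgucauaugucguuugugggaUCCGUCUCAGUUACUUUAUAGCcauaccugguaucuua
The annotated arms follow, with the seed in capitals. The 5p arm is at 50069720 to 50069741 and the 3p arm at 50069762 to 50069783.
miR-340-5p: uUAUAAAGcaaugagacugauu
miR-340-3p: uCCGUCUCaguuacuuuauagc

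Of the 4 sequences counted, 3 share their first base and seed and differ only at the 3′ end, the end that the methyltransferase and the oxidation act on. They are shown as deposited, with the seed in capitals.
22-nt sequence: tTATAAAGcaatgagactgatt
21-nt sequence: tTATAAAGcaatgagactgat
20-nt sequence: tTATAAAGcaatgagactga
The 22-nt sequence equals the annotated arm, and the other two end 1 and 2 bases earlier. The fourth sequence, T1C, carries C in place of T at position 1 counted from the 5′ end (capital), and has 0 genomic matches in the deposited table.
T1C sequence: Ctataaagcaatgagactgatt
The seed UAUAAAG occurs in 1 of the 1679 mature miRNAs of the RefSeq table, miR-340-5p itself. All 4 listed mature sequences that carry it are the miR-340-5p sequences above.

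Another 10 listed sequences are tied to the hairpin by sequence alone. Of these, 9 have no annotation and lie 1 substitution from the 22-nt sequence at the same length. The other has a hit on the precursor only and is the annotated 3p arm with 1 more templated base at its 3′ end (chr11:50069762-50069784).
3p-arm sequence: tCCGTCTCagttactttatagcc

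No listed sequence has fewer than 2 counts in either library of oxidized methyltransferase RNA, or fewer than 10 in both together. The forms described here are thus those seen in oxidized methyltransferase RNA, and no listed form falls below that level. Listed counts per library ranged from 2446036 to 6641250, except in oxidized control RNA, where they were 438363 and 295094. Counts of mature miRNAs were 13772 and 10115 in those 2 libraries and 1643283 to 4377659 in the others. The beta-cell miRNAs miR-375-3p and miR-7a-5p held 23.4% to 25.1% of mature miRNA counts in non-oxidized control RNA. Their share was highest in oxidized control RNA, at 26.7% to 33.4%, and lowest in oxidized methyltransferase RNA, at 9.19% to 11.4%. Of 11 miRNAs that mark other cell types, 8 had no listed sequence, though only sequences with reads in oxidized methyltransferase RNA are listed. The remaining 3 (miR-122-5p of liver, miR-124-3p of neurons and miR-126a-3p of endothelium) held at most 0.0529% of mature miRNA counts in any library. Intervals on shares below are 95% Wilson intervals. They cover counting error only, as do limits from a count of 0, since reads are not known to be independent molecules.

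Without oxidation, miR-340-5p was an abundant miRNA of these cells. The 22-nt sequence had 8312 and 8950 counts in non-oxidized control RNA, which was 0.236% (interval 0.231% to 0.242%) and 0.204% (0.200% to 0.209%) of mature miRNA counts. By mean count in this group it ranked 22 among the most abundant sequences of 172 mature miRNAs. The 21-nt sequence followed with 2152 and 2752 counts, the 20-nt sequence with 232 and 194, and the T1C sequence with 27 and 20. The order of the 4 forms was the same in both libraries, and no 2 forms overlapped. The 3p-arm sequence, from the opposite strand of the hairpin, had 26 and 64 counts. It made up 0.242% (interval 0.165% to 0.354%) and 0.534% (0.419% to 0.682%) of the counts of the 3p-arm sequence and the 4 mature sequences together.

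In oxidized control RNA all 14 sequences of the hairpin were at 0 in both libraries. Scaled by total listed counts, most of the 14 were too rare for a 0 to show a fall at this depth. Under TMM scaling, explained below, the lowest bound among the 14 was a 6.74-fold fall. For the 22-nt sequence a count of 0 allows a share of up to 0.000684% and 0.00102% of listed counts, taken as 3 counts over the listed counts. The upper ends of the Wilson intervals were 0.000876% and 0.00130%. Of all 9851 sequences tested across the table, 29.2% were at 0 in both of these libraries. Against a floor of 3 counts per library, the 22-nt sequence was at least 3640-fold lower after oxidation under TMM scaling, a scaling that assumes most sequences unchanged, and at least 170-fold lower when scaled by total listed counts. The bound is smaller still, at least 47.7-fold, when miRNA sequences alone set the scale. For the 21-nt sequence the same 3 bounds were 1032-fold, 47.8-fold and 13.5-fold. These are values of the contrast that chose miR-340.

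Oxidized control RNA still held some miRNA reads, so the 0 can be read against them. At its share of mature miRNA counts in non-oxidized control RNA, 0.219%, the 22-nt sequence would have had 30.1 and 22.1 of the mature counts of the 2 oxidized control libraries, and it had 0 and 0. The 21-nt sequence would have had 8.56 and 6.28 counts, and the 20-nt sequence under 1. Against that share, a shortfall of the 20-nt and T1C sequences was not detectable at this depth. The bounds of the 20-nt sequence were 90.1-fold under TMM scaling, 4.24-fold with total counts and 1.19-fold with miRNA sequences alone setting the scale. Those of T1C were 9.95-fold, 0.471-fold and 0.132-fold, where a bound under 1 shows no fall. These too are values of the contrast that chose miR-340, and they are a description only.

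The miRNAs nearest in abundance were compared, 5 above and 5 below miR-340-5p. Of these 10, 3 (miR-130b-3p, miR-103-3p and miR-29b-3p) were also at 0 in both oxidized control libraries. The other 7 had 2 to 22 counts in the 2 libraries together. miR-151-5p had 19 and 3 counts, miR-98-5p, a member of the let-7 family, had 17 and 2, and miR-29a-3p had 13 and 6. More widely, of 59 miRNAs whose main sequence averaged at least 1000 counts in non-oxidized control RNA, 21 were at 0 in both oxidized control libraries. A count of 0 there was thus shared by many abundant miRNAs.

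**Figure D1:**
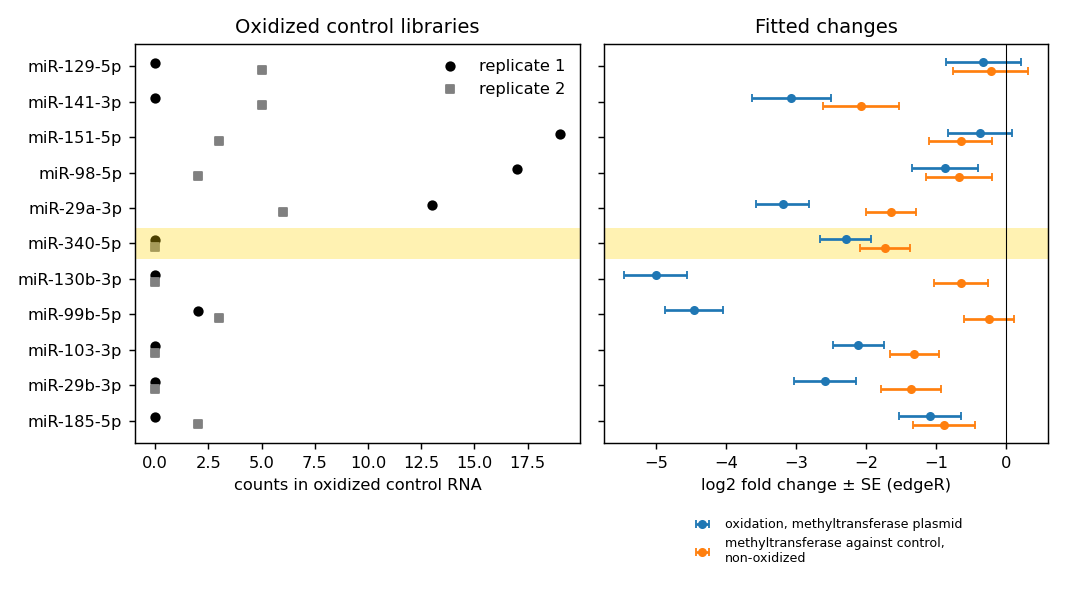
miR-340-5p (shaded) between the 5 next more and 5 next less abundant miRNAs, in order of mean count in non-oxidized control RNA. The left panel plots counts in the 2 oxidized control libraries, 0 for miR-340-5p and 3 others. The right panel plots edgeR log2 fold changes with their SE for 2 comparisons, where miR-340-5p lies at -2.29 and -1.73.

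With the methyltransferase plasmid every form had reads after oxidation, which the minimum for being listed requires of any listed sequence. The 22-nt sequence had 2652 and 2614 counts before and 693 and 598 counts after oxidation. As a share of mature miRNA counts this was 0.118% and 0.0858% before and 0.0339% and 0.0364% after. Both oxidized libraries lay below both non-oxidized ones, as they did (in counts scaled to library size, TMM CPM) for 28.9% of all sequences tested. This contrast shares no library with the one that chose miR-340, but the fit took its spread, scaling and filter from all 8 libraries. The 22-nt sequence fell by 2.29 ± 0.36 (SE) on the log2 scale, a 4.89-fold fall (edgeR quasi-likelihood test, Benjamini-Hochberg adjusted p 0.00174). Fitted on only the 4 libraries compared, its log2 change was -2.06 (edgeR adjusted p 0.00881). The authors' deposited table gives a 4.82-fold fall with an adjusted p of 3.57e-05.

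The 21-nt sequence also fell, with a larger log2 change than the 22-nt sequence. The fits did not test the 2 forms against each other. Counts of the 21-nt sequence were 748 and 769 before and 69 and 74 after oxidation, a change of -3.65 ± 0.41 (SE), or 12.5-fold (edgeR adjusted p 2.09e-04). The 20-nt sequence went from 109 and 60 to 22 and 13 counts (-2.57 ± 0.54, edgeR adjusted p 0.00948). That call is lost under several scalings and without single libraries, for example with total counts (adjusted p 0.0776) or without the second oxidized methyltransferase library (adjusted p 0.101). The T1C sequence had 9 and 8 counts before and 7 and 7 after, with no call (-0.53 ± 0.70, edgeR adjusted p 0.679; 0.32 with total counts).

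All 4 sequences passed the filter on low counts, and 3 of the 4 were called lower, against 11.2% of all 9851 sequences tested (1.77% were called higher). The calls over all sequences numbered 1274. Leaving out a library leaves 1 in its group and changes the sequences tested, so counts of calls cannot show how far they rest on single libraries. The 4 forms are overlapping reads of 1 RNA and are not independent. The scaling shifts the whole comparison: total counts raise the median log2 change of all tested sequences by 0.87 and turn 174 higher and 1100 lower calls (13.7% higher) into 1008 and 630 (61.5%). With the upper quartile there were 863 and 700 (55.2% higher), and with miRNA sequences fitted alone 157 and 194 (44.7% higher). The 22-nt sequence remained called lower with total counts (-1.43, edgeR adjusted p 0.0348), with the upper quartile (-1.51, adjusted p 0.0212) and with miRNA sequences fitted alone (-0.90, adjusted p 0.0302).

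**Figure D2:**
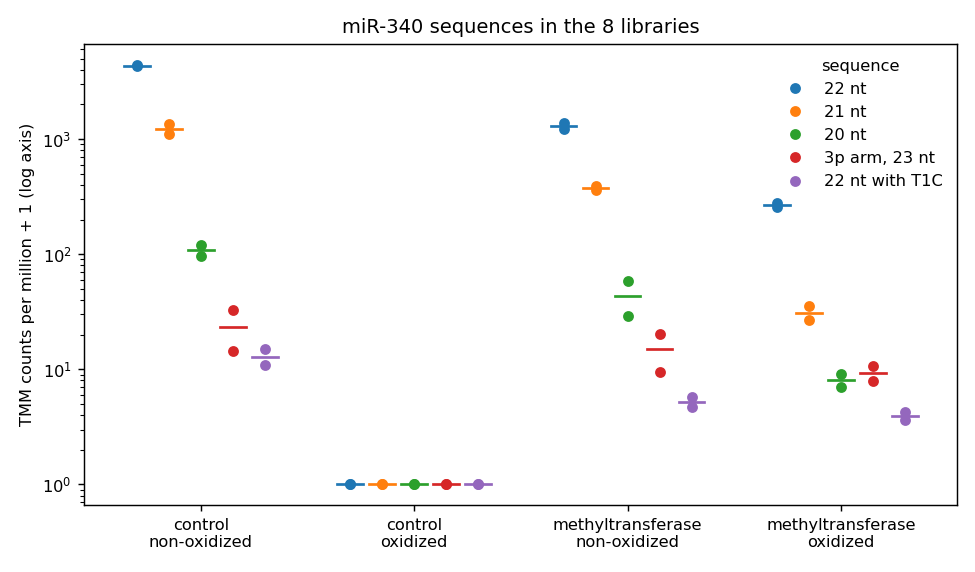
Levels of the 4 miR-340-5p sequences and the 3p-arm sequence in the 8 libraries, as TMM CPM plus 1 on a log axis. Points are libraries and bars are group means of 2. Every form sits at 0 (plotted at 1) in oxidized control RNA, and the 22-nt sequence has 257 and 277 TMM CPM in oxidized methyltransferase RNA.

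Among miRNAs this fall was in the middle of the range. Over the main sequences of 170 tested miRNAs the median log2 change with oxidation was -1.95, with 90 called lower and 0 higher, and miR-340-5p ranked 69 from the lowest. Its neighbours in that order were miR-99a-5p (-2.32 ± 0.55) and miR-670-5p (-2.28 ± 0.45), from which it differed by less than 1 SE. Among the 10 neighbours in abundance, 6 were called lower and 0 higher. They ran from miR-130b-3p (-5.01 ± 0.45, edgeR adjusted p 4.89e-05) to miR-129-5p (-0.32 ± 0.54, adjusted p 0.749), which did not pass the test.

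**Figure D3:**
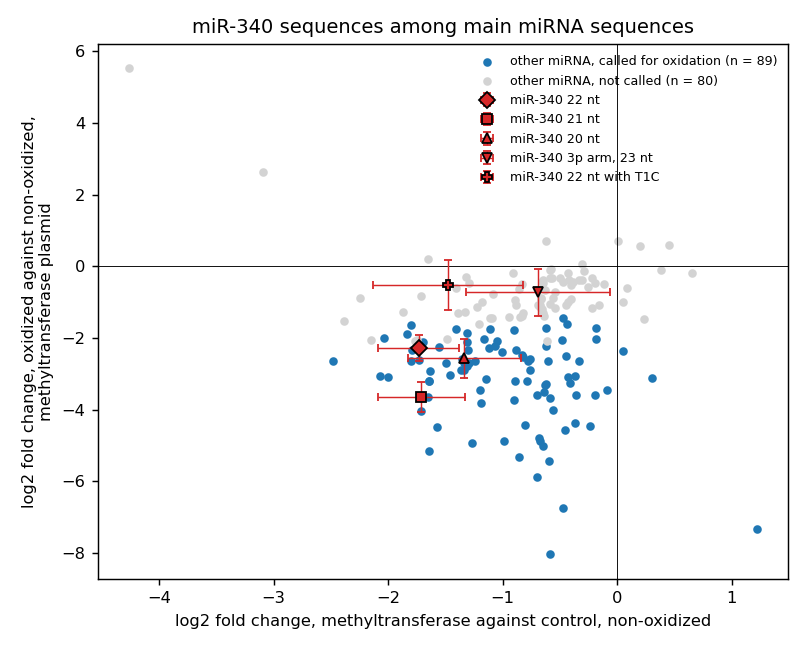
Log2 fold changes of the main sequences of 169 other miRNAs and of 5 miR-340 sequences. The x axis is methyltransferase against control plasmid in non-oxidized RNA, and the y axis is oxidized against non-oxidized methyltransferase RNA; bars are SE. The 22-nt sequence lies within the cloud at -1.73 and -2.29, and the 21-nt sequence lies lower, at -3.65.

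The lengths of miR-340-5p were compared as shares, which need no scaling between libraries. The 21-nt sequence made up 22% (interval 20.6% to 23.4%) and 22.7% (21.4% to 24.2%) of the 21- and 22-nt counts in non-oxidized methyltransferase RNA. In oxidized methyltransferase RNA it made up 9.06% (7.22% to 11.3%) and 11.01% (8.86% to 13.6%). The means were 22.4% ± 0.517 and 10.03% ± 1.38 (SD, n = 2 each), and the libraries of the 2 groups did not overlap. In non-oxidized control RNA the share was 20.6% (19.8% to 21.4%) and 23.5% (22.8% to 24.3%), overlapping that of non-oxidized methyltransferase RNA. An exact two-sided permutation test of 2 libraries against 2 cannot go below p = 0.333, the value found for oxidation. Adjusted over 12 such tests of shares within miR-340 it was 0.667.

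The share of the 20-nt sequence overlapped between the groups. It was 3.11% and 1.74% of the 20- to 22-nt counts before and 2.81% and 1.90% after oxidation. The 22-nt form made up 75.6% and 75.9% of the 3 lengths before oxidation and 88.4% and 87.3% after it, and the libraries did not overlap (exact permutation p 0.333, the smallest possible).

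Among other miRNAs the share of the shorter form differed in both directions. For 86 miRNAs the main sequence and the form 1 base shorter at the 3′ end could be compared, with at least 10 counts of each in both non-oxidized methyltransferase libraries. The share of the shorter form was lower in both oxidized than in both non-oxidized libraries for 39 of them (45.3%), higher for 33 and overlapping for 14. The ratio of the oxidized to the non-oxidized share was 0.449 for miR-340-5p, against a median of 0.911, and 22 of the 86 had a lower ratio. The lowest ratio was that of miR-30a-3p (0.0243). The miR-340-5p ratio thus lay inside a wide range.

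**Figure D4:**
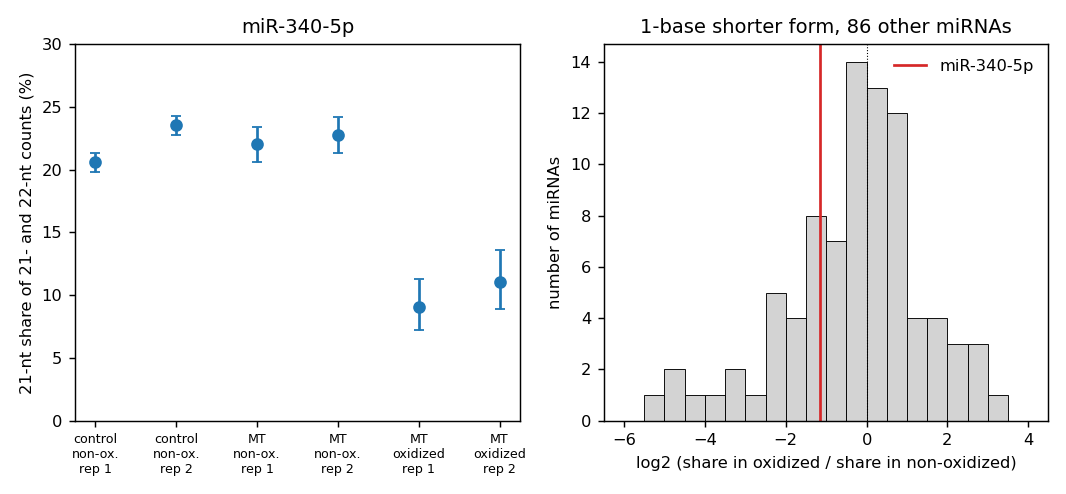
Left, the 21-nt share of 21- and 22-nt miR-340-5p counts in each library that had any, with 95% Wilson intervals (MT, methyltransferase): 9.06% and 11.01% after oxidation against 20.6% to 23.5% in the other 4 libraries. Right, the log2 ratio of the oxidized to the non-oxidized share of the 1-base shorter form over 86 other miRNAs, with miR-340-5p as a line.

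Levels of miR-340 with the 2 plasmids were then compared in RNA that had not been oxidized. The 22-nt sequence had 4277 and 4399 TMM CPM with the control plasmid and 1388 and 1224 with the methyltransferase, with no overlap between the groups, as for 21.3% of all sequences in this direction. Its log2 change was -1.73 ± 0.35 (SE), 3.32-fold lower, which did not pass the test (edgeR adjusted p 0.269). The value was -1.71 ± 0.38 for the 21-nt sequence, -1.34 ± 0.49 for the 20-nt sequence and -1.48 ± 0.66 for T1C (edgeR adjusted p 0.269, 0.471 and 0.564). By edgeR, 0 of the 4 sequences were called, as were 0 of all 9851 tested (0% in each direction). At an unadjusted edgeR p under 0.05, the 22-, 21- and 20-nt sequences were lower, as were 4.73% of all sequences. These forms are overlapping reads of 1 RNA, so they are not separate results. T1C passed the filter on low counts only by its counts in non-oxidized control RNA, where it is high, so its value here is a description. The non-oxidized control libraries also belong to the contrast that chose miR-340, so these values are not independent of that choice.

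The test decided the call in this comparison, whose non-oxidized control libraries also belong to the contrast that chose miR-340. With the DESeq2 Wald test, which called 104 sequences in all, the 22-nt sequence was lower (-1.94, adjusted p 0.0100), as was the 21-nt sequence (-1.93, adjusted p 0.0118). limma-voom called 0 sequences, and its unadjusted p was under 0.05 for 575 lower and 394 higher ones. The median log2 change of the main sequences of the 170 miRNAs was -0.76 in this comparison, so miR-340-5p lay 0.97 below it and ranked 17 from the lowest. As a share of mature miRNA counts, which does not depend on the other RNA classes, the 22-nt sequence was 0.236% and 0.204% with the control plasmid and 0.118% and 0.0858% with the methyltransferase. The summed share of miR-375-3p and miR-7a-5p also differed, at 23.4% to 25.1% with the control plasmid and 17.0% to 19.0% with the methyltransferase. The part of the overall miRNA level in the miR-340 value was not tested.

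In oxidized RNA the plasmids differed in the opposite direction. The 22-nt sequence had 693 and 598 counts with the methyltransferase and 0 and 0 with the control plasmid. It was at least 224-fold higher with the methyltransferase under TMM scaling and at least 27.6-fold higher with total counts. With miRNA sequences alone setting the scale the bound was 12.5-fold. For the 21-nt sequence the same 3 bounds were 25.1-fold, 3.09-fold and 1.41-fold. These values share the oxidized control libraries with the contrast that chose miR-340, and the table lists only sequences present in oxidized methyltransferase RNA, so they are a description.

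The 3p-arm sequence was not called with oxidation. Its counts were 37 and 18 before and 26 and 15 after oxidation with the methyltransferase plasmid, with overlapping libraries and no call (-0.73 ± 0.65, edgeR adjusted p 0.521; 0.092 with total counts). Its part of the 3p-arm and 5p-arm counts was 1.04% (interval 0.756% to 1.43%) and 0.519% (0.328% to 0.819%) before oxidation. After oxidation it was 3.18% (2.18% to 4.62%) and 2.12% (1.29% to 3.47%), above both earlier values (exact permutation p 0.333, the smallest possible). With at most 64 counts in a library, an arm this rare is listed only if it kept reads in oxidized methyltransferase RNA. The plasmids in non-oxidized RNA differed by -0.69 ± 0.63 (edgeR adjusted p 0.818) for this sequence, and by 0.046 without the second non-oxidized control library.

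The sequences 1 substitution from the 22-nt form numbered 10, T1C included. Of these, 9 were A-to-G or T-to-C changes. The last, T22A, can also be read as the 21-nt form with an added A, and is shown with the changed base in capitals.
T22A sequence: ttataaagcaatgagactgatA
In non-oxidized control RNA these sequences had 15 to 59 counts each, and in oxidized methyltransferase RNA 3 to 10. Of the 9 that passed the filter, 0 were called in either comparison, with 3 lower at an unadjusted p under 0.05 in each (edgeR quasi-likelihood test). Of all 9851 sequences tested, 17.1% were lower at that level with oxidation in methyltransferase RNA and 4.73% between the plasmids in non-oxidized RNA. Of the 3 lower between the plasmids, T1C and A7G passed the filter only by their counts in non-oxidized control RNA, where they are high. Log2 changes of the substitution sequences with oxidation in methyltransferase RNA ran from -2.04 (T22A) to -0.48. Together they made up 3.64% and 3.67% of their own and the 22-nt counts in non-oxidized control RNA, 5.32% and 4.07% in non-oxidized methyltransferase RNA, and 9.53% and 8.98% in oxidized methyltransferase RNA. At these counts the minimum for being listed, set on oxidized methyltransferase RNA, lies close to the values themselves, and its part in these shares was not tested. T22A was 2.86% and 2.53% of its own and the 21-nt counts before oxidation with the methyltransferase and 8% (interval 3.72% to 16.4%) and 7.5% (3.48% to 15.4%) after it, from 6 T22A counts in each oxidized library.

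The miRNA with the most similar profile was sought among 121 others with a mean of at least 50 counts, by Euclidean distance of log2(TMM CPM + 1) over the 8 libraries. These include the control libraries whose values chose miR-340, so the order of distances is a description. The nearest was miR-103-3p (distance 0.949), followed by miR-185-5p (2.29), miR-29b-3p (2.34), miR-141-3p (2.40) and miR-574-5p (2.49). miR-103-3p had 5247 and 5990 counts in non-oxidized and 0 and 0 in oxidized control RNA, and 2177 and 2421 before and 745 and 541 after oxidation with the methyltransferase. Its mature sequence is shown because the profile is the closest (RefSeq, seed in capitals).
miR-103-3p: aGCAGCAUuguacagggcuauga
Its seed, GCAGCAU, differs from that of miR-340-5p, UAUAAAG. Between miR-340-5p and miR-103-3p the log2 changes were -2.29 ± 0.36 and -2.11 ± 0.36 with oxidation in methyltransferase RNA, and -1.73 ± 0.35 and -1.31 ± 0.35 between the plasmids in non-oxidized RNA, so the 2 miRNAs lay within their errors of each other in the first and about 1 SE apart in the second.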

How the data were processed

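The authors deposited 1 table which, per the file headers, holds a count per distinct read sequence in each of 8 libraries, and that count divided by a size factor (a normalized signal deposited by the authors, not used for tests). The aligner, genome build, trimming, use of molecular identifiers and counting tool are not given in the sources used here. From the authors' deposited comparison, the signed fold change (a score) and the adjusted p-value were copied unaltered. The 12608 lines were merged to 11568 sequences. Every listed sequence has at least 2 counts in each oxidized methyltransferase library.

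A single edgeR model (version 4.0.16, R 4.3.3) of the 4 groups took the counts of all 8 libraries, with TMM scaling, filterByExpr and the quasi-likelihood test. Sequences were called at 0.05 after Benjamini-Hochberg adjustment over all those tested. limma 3.58.1 (voom) and DESeq2 1.42.0 were alternatives, with other scalings, filters, a replicate block and leaving out each library. Bounds set a group at or under 3 counts to 3 counts per library. Shares were compared by exact permutation tests (scipy 1.17.1).

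All miR-340 sequences, all sequences tied to the hairpin, 5 abundance neighbours on each side, 5 nearest profiles and 3 miRNAs on each side in the order of the oxidation change were taken by rule. A miRNA's main sequence is its most abundant one with a single mature hit. The members and lists were chosen with earlier results of these data known. Sequences are credited to RefSeq (GRCm38.p6), and loci to GENCODE M21 (GRCm38); both were matched by sequence or name.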

Additional observations from a re-analysis of the deposited data

Results flagged for a closer look

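The difference between the plasmids in the 22-nt miR-340-5p sequence had opposite signs in non-oxidized and oxidized RNA. In non-oxidized RNA both methyltransferase libraries were lower than both control libraries (log2 change -1.73, 2652 and 2614 against 8312 and 8950 counts). That value was not called (edgeR adjusted p 0.269). In oxidized RNA both were higher (693 and 598 against 0 and 0 counts). The 2 differences were not tested against each other, since the oxidized control values chose miR-340. Every listed sequence also has reads in oxidized methyltransferase RNA.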

How the results depend on the processing

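The fall of the 22-nt sequence with oxidation in methyltransferase RNA stayed called under every alternative with 2 libraries per group, with adjusted p-values up to 0.0348 (edgeR, total counts). The 4 miR-340-5p sequences summed by annotation gave -2.53. For the 22-nt sequence itself the change ran from -2.33 (no filter) to -0.90 (miRNA sequences alone), and from -2.40 to -2.18 when leaving out each library. The lower value in non-oxidized RNA ran from -1.94 to -1.03, and was called with the DESeq2 Wald test (-1.94) only. With the replicate block the 22-nt values were -2.29 (adjusted p 0.00155) and -1.73 (adjusted p 0.178). The block changed no call of the 22-nt sequence and gave 1385 against 1274 calls with oxidation. Whether libraries with the same number share a source is not given in the labels. Over 1193 sequences the deviations of same-numbered libraries from their group means correlated from -0.09 to 0.28 between pairs of groups.

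The bound for oxidation with the control plasmid (log2 -11.83) was -12.27 with DESeq2 size factors, -7.41 with total counts, -10.03 with the upper quartile, -11.86 with no filter, -11.32 with at least 10 counts in 4 libraries, -5.58 with miRNA sequences alone, and -12.13 to -11.62 when leaving out each library. The bound between plasmids in oxidized RNA (7.81) was 8.05, 4.78, 6.88 and 3.65 with DESeq2 size factors, total counts, the upper quartile and miRNA sequences alone, and 7.56 to 8.23 when leaving out each library. All these alternatives change the scale or the libraries behind a floor of 3 counts.

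The 20-nt call with oxidation was lost with total counts (-1.74), the upper quartile (-1.79), miRNA sequences alone (-1.18) and without 3 single libraries (-2.83 to -2.01). The 3p-arm value with oxidation turned to 0.092 with total counts, 0.046 with the upper quartile and 0.66 with miRNA sequences alone, and between plasmids to 0.028 with miRNA sequences alone and 0.046 without the second non-oxidized control library (-1.43 to 0.046 over the libraries left out). The T1C value turned to 0.32 when scaled by total counts and to 0.23 by the upper quartile. The cause was not tested. Calls with oxidation numbered 1274, and counts of calls with 1 library left in a group cannot be set against that number. The difference in the 21-nt share, -12.3 percentage points, ran from -13.3 to -11.4 without each library, an alternative chosen after seeing the data. Depth limits oxidized control RNA, where 10115 mature miRNA counts in the smaller library allow a share of up to 0.0297% of them at a count of 0. That limit is 3 counts over the mature counts, and the upper end of the Wilson interval was 0.0380%.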

Other observations

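miR-340-5p had the lowest GC content of the main sequences of 172 mature miRNAs, 27.3%, against a median of 47.8% and a highest value of 71.4%. Over 122 main sequences with a mean of at least 50 counts, GC content and the log2 change with oxidation in methyltransferase RNA had a Spearman rho of 0.09, and GC content and the change between plasmids in non-oxidized RNA a rho of 0.35. These are descriptions across miRNAs that share libraries. The 12 main sequences with a GC content of at most 35% had a median change with oxidation of -1.88, and 9 of them were called lower (edgeR adjusted p under 0.05). From above 35% to 45%, the median of 36 sequences was -2.62, with 24 called lower. From above 45% to 55%, the median of 56 sequences was -2.09, with 33 called lower. Above 55%, the median of 18 sequences was -1.78, with 10 called lower.

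By their last base, 56 of the 122 main sequences ended in T, as the 22-nt miR-340-5p sequence does. Their median change with oxidation was -2.09, with 37 called lower. The median was -3.65 for the 24 ending in G (21 called lower), -2.06 for the 25 ending in A (12) and -1.15 for the 17 ending in C (6). These groups were formed after the data were seen, and differences between them were not tested.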
